A study of Mus musculus with 18 samples.

Results

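H19, Igf2, Dlk1, Meg3, Rian, Mirg, Peg3, Plagl1, Cdkn1c and Grb10 are imprinted genes, which a cell reads mainly from the copy of one parent, and which set growth before birth. All 10 were chosen by symbol from the 54838 genes of the deposited expression table, and each had 1 row in it. RNA of 18 C57BL/6 mouse livers and liver tumours, all labelled as 36 weeks old, had been sequenced in 6 groups of 3 samples. WT mice carried the miR-181ab1 cluster, and GKO mice lacked it in all tissues. Tumours and the liver around them (non-tumours) came from mice of both genotypes injected with 25 mg/kg of diethylnitrosamine (DEN, a carcinogen that hepatocytes activate) at postnatal day 12, and normal livers came from untreated mice of both genotypes. The model was male mice given DEN as pups, according to the methods of the study, so each tumour had arisen in a liver exposed before weaning. Whether any tumour shared its mouse with a non-tumour was not labelled, nor whether a tumour sample was 1 nodule.

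Levels are given in TPM, read numbers per length of gene, scaled to the same total in every sample, so that levels can be compared between genes. Where 3 values of a group follow each other, they are those of samples 1, 2 and 3. Each sample had between 11925055 and 20751348 reads on genes (median 16973801), and a gene with 3 or fewer reads was taken as at the floor of detection. Liver identity held in every sample. All 10 hepatocyte markers had reads in each of them, and albumin (Alb) was at 22860 TPM or more. The deleted genes Mir181a-1 and Mir181b-1 could not check the genotype, since WT samples had no read of either gene, and GKO samples had none apart from 1 read of Mir181a-1 in GKO tumour 3.

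H19 and Igf2 are neighbours that share enhancers. H19, a long non-coding RNA that is not translated, is read from the maternal copy, and Igf2, which encodes a fetal growth factor, from the paternal copy. Dlk1, which encodes a membrane protein of progenitor cells, is paternal, while the non-coding RNAs Meg3, Rian and Mirg beside it are maternal and carry many miRNAs and small nucleolar RNAs. Liver makes several of these RNAs in abundance before birth and little afterwards, and H19 returns in some liver tumours. Which parental copy was read cannot be told from these inbred mice.

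The miRNAs are shown here because the members are host genes of miRNAs and because the GKO mice lacked a cluster of miRNAs. H19 carries miR-675 in an exon, on chromosome 7 (minus strand, 142577064 to 142577147 of the mm10 genome for the hairpin). Meg3 carries miR-770 and Mirg carries miR-410 in exons, and Rian carries miR-370 in an intron, all on the plus strand of chromosome 12. The mature sequences are those of RefSeq (GRCm38.p6), 5′ to 3′, with the seed (bases 2 to 8) in capitals.
miR-675-5p: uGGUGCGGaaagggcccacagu
miR-675-3p: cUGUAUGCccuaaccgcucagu
miR-770-5p: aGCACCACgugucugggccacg
miR-370-3p: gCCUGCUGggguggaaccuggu
miR-410-3p: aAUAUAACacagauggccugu
miR-181a-5p: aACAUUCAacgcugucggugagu
miR-181b-5p: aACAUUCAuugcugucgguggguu
The last 2 are the main products of the deleted cluster on chromosome 1, and they share their seed. Mir675, Mir770, Mir370 and Mir410 had 0 reads in all 18 samples. Mir483, in an intron of Igf2, had 2 reads, both in GKO non-tumour 2, which is at the floor of detection. Of 67 miRNA and 23 small nucleolar RNA genes between Dlk1 and Dio3 only 1 had a read, in WT non-tumour 3. These are libraries of long RNA, in which the host genes could be measured and the mature small RNAs could not. Mir675, Mir770 and Mir410 also share all their bases with exons of their host genes. Their 0 reads therefore depend as well on how reads matching 2 genes were counted.

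The match to the shared seed of miR-181a-5p and miR-181b-5p, TGAATGT on the sense strand, was searched in the longest transcript of each member. It was found in 5 of the 10, H19, Grb10, Peg3, Meg3 (3 matches) and Rian (2 matches), and in 3527 (25.3%) of the 13956 genes tested between GKO and WT tumours whose transcripts were read. The median length of those transcripts was 2865 bases. Meg3 had 14548 bases, Peg3 8694, Rian 8089, Grb10 5061 and H19 2286. The members without a match ran from 1901 (Cdkn1c) to 5260 bases (Plagl1). Only H19, Peg3, Cdkn1c and Grb10 were among the genes tested, so the 2 shares are of unlike sets. The matches of the 3 members with 1 match are shown with their surroundings and the match in capitals. They are shown because the GKO mice lacked the miR-181ab1 cluster, whose main products carry this seed.
H19: tctccgtaTGAATGTatacag
Grb10: aattgacaTGAATGTaaaggg
Peg3: aaactataTGAATGTccaaaa
A match describes the letters of the transcript, and none of the 3 genes was called between GKO and WT tumours, as given below.

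H19 (ENSMUSG00000000031, chromosome 7 of mm10, 142575529 to 142578143, minus strand, 2460 exonic bases) was the member with the highest levels and the widest spread. The WT tumours were at 455, 538 and 5.43 TPM (9248, 10880 and 118 reads). The GKO tumours were at 1005, 145 and 1680 TPM (22847, 2919 and 33921 reads). In GKO tumour 3 it was gene number 63 of the table by TPM. The 12 livers without tumour lay between 0.0779 and 3.71 TPM. Every tumour was above every liver, as in 4.13% of the 13914 genes that averaged 0.5 TPM or more, but WT tumour 3 was only just above WT non-tumour 1, at 3.71 TPM, and far below the other 5 tumours. The next lowest tumour, GKO tumour 2, was at 145 TPM.

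**Figure D1:**
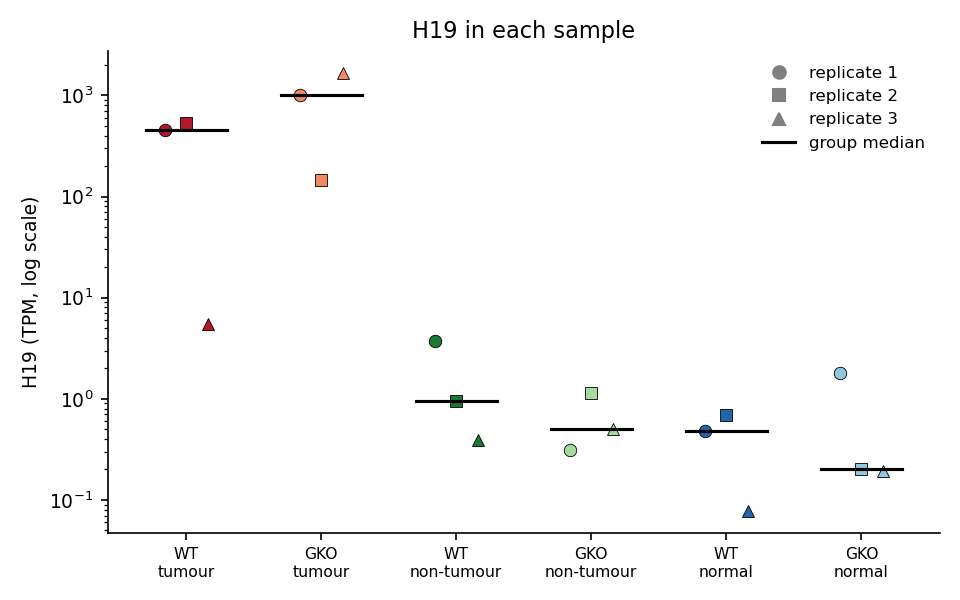
H19 in TPM on a log axis for each of the 18 samples, by group, with the replicate number as the symbol and the group median as a line. WT tumour 3 lies at 5.43 TPM, the other 5 tumours lie at 145 or more, and no liver without tumour is above 3.71.

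H19 rose in GKO tumours against GKO non-tumours, with means of 943 ± 769 and 0.652 ± 0.434 TPM (SD, n = 3 each). The difference of log2(TPM + 1) was 8.60 (standard error 0.82, adjusted p = 0.00417 from limma). In WT mice the means were 333 ± 287 and 1.68 ± 1.78 TPM (SD, n = 3 each), and the difference of 5.64 (standard error 1.65) missed the threshold, with an adjusted p of 0.124 from limma. This rested on WT tumour 3. Without it the difference was 7.73 (adjusted p = 0.00157 from limma), and when all 18 samples gave the estimate of the spread, the adjusted p was 0.00823. WT tumours 1 and 2 resembled each other more than the other tumours did, with a Pearson's r of 0.982 over 13914 genes against 0.911 to 0.950 for the other 14 pairs of tumours. Averaged as 1 sample, they gave a difference of 4.60 (adjusted p = 0.343 from limma). Over both genotypes, an exact permutation test of the tissue labels within genotype gave p = 0.005 (two-sided), the smallest of the 400 arrangements, for H19 in 6 tumours against 6 non-tumours. Of 14106 genes that averaged 0.5 TPM or more in these samples, 4.76% were likewise higher in all 6 tumours than in all 6 non-tumours.

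The background of these comparisons was high. Of the 14092 genes tested between GKO tumours and non-tumours, 11.7% were called in either direction and 7.75% were called higher in tumours. H19 and Grb10 were the members called there, of 4 tested, but Grb10 had passed the filter on low values only through the tumours, so this count supports nothing. In WT mice 4.23% of 14003 genes were called and 0 of the 3 members tested, with H19 and Grb10 at an unadjusted p under 0.05, as were 2791 of the 14003 genes. When all 18 samples shared one fit, H19 and Grb10 were called in WT mice too, against 11% of genes. The median difference over all genes was 0.20 in GKO mice and -0.02 in WT mice, far below those of H19. Hepatocyte markers summed to between 175167 and 209153 TPM in the tumours and between 70916 and 99781 TPM in the 12 livers without tumour, with Alb the most abundant by its mean over all samples, so that the scale shared by all genes differed in composition between the tissues. Its part in the H19 result was not tested. In such tissue samples, more cells that make an RNA and more of that RNA per cell cannot be told apart.

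Between GKO and WT tumours, H19 differed by 2.43 on the log2(TPM + 1) scale (standard error 1.79, adjusted p = 0.720 from limma). The groups overlapped, since GKO tumour 2 was below WT tumours 1 and 2. None of the 4 members tested (H19, Peg3, Cdkn1c and Grb10) was called there, against a background of 0.0215% (3 of 13964 genes), and none of the 4 was under an unadjusted p of 0.05, as 1238 genes were. Without WT tumour 3 the difference of H19 was 0.34, and with WT tumours 1 and 2 averaged it was 3.47 (adjusted p = 0.984 from limma). The difference of the tumour effect between the genotypes, 2.96 (standard error 2.04), was not called either (adjusted p = 0.564 from limma, background 0.0142%). In non-tumours and in normal livers the genotypes differed in H19 by -0.53 and 0.19 (adjusted p = 0.664 and 0.999 from limma), with 0% of genes called in either comparison and 799 and 519 genes at an unadjusted p under 0.05. Ordered by median level, the GKO tumours (1005 TPM) came before the WT tumours (455). Non-tumours of WT (0.946) and GKO mice (0.504) followed, and then the untreated livers of WT (0.479) and GKO mice (0.202). The 2 tumour groups overlapped, and so did all 4 groups without tumour.

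Igf2 (ENSMUSG00000048583, chromosome 7, 142650766 to 142666816, minus strand), whose start lies 88.7 kb from that of H19, was at or near 0 everywhere. The WT tumours had 0, 2 and 0 reads of it and the GKO tumours 2, 1 and 7. All 12 livers without tumour had 0 reads, so the floor of 3 reads is the limit there. Only GKO tumour 3, the sample with the most H19, was above the floor, at 0.149 TPM. Of the 5723 exonic bases of Igf2, 3596 (62.8%) are shared with the protein-coding gene Gm49394, which had 0 reads in every sample. A counting tool that sets aside reads matching 2 genes would miss those bases for both genes. The study's setting is not given in the sources used here. Mir675, whose 84 bases all lie in H19 exons, had 0 reads, while H19 had 79933 in the tumours. Reads over those bases were thus not counted for Mir675, and whether Igf2 lost reads over its shared bases was not tested. The level of Igf2 is therefore certain only for its own bases. No fold change is given.

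Grb10 (ENSMUSG00000020176, chromosome 11, 11930508 to 12038683, minus strand), which encodes an adaptor that binds the insulin and IGF1 receptors and restrains growth, was the other member above every liver in every tumour. The WT tumours were at 1.58, 1.29 and 8.31 TPM and the GKO tumours at 1.81, 3.27 and 1.90. The 6 non-tumours lay between 0.254 and 0.620 TPM, and the 6 normal livers between 0.0990 and 0.417 TPM. WT tumour 3, the tumour with the least H19, had the most Grb10, at 667 reads against 243 or fewer in the other tumours.

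Grb10 rose in GKO tumours against GKO non-tumours by 1.32 on the log2(TPM + 1) scale (standard error 0.22, adjusted p = 0.0148 from limma). Its mean was 0.311 TPM in GKO non-tumours and 2.33 TPM in GKO tumours, so that only the tumours carried it past the filter of 0.5 TPM. In the fit without a filter, which called 2.26% of 26005 genes, the adjusted p was 0.0475. Without GKO non-tumour 3 the difference was 1.30 and the adjusted p was 0.0709. In WT mice, where it likewise averaged 0.383 TPM in non-tumours, the difference of 1.47 (standard error 0.53) was not called, with an adjusted p of 0.196 from limma, or 0.0188 when all 18 samples shared one fit. The exact permutation test over both genotypes gave p = 0.005 (two-sided), the smallest possible, as for H19, against the same 4.76% of genes, among which Grb10 was counted only through the tumours. Between GKO and WT tumours Grb10 differed by -0.22 (standard error 0.54, adjusted p = 0.921 from limma), which turned to 0.43 without WT tumour 3. In normal livers it was at 0.113, 0.0990 and 0.137 TPM in WT and at 0.417, 0.396 and 0.233 TPM in GKO mice, without overlap, as were 4.69% of the 6889 genes that averaged 0.05 to 0.5 TPM there. Grb10 was below the filter on low values in normal livers, and in a fit without it the difference was 0.27 (adjusted p = 0.940 from limma).

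**Figure D2:**
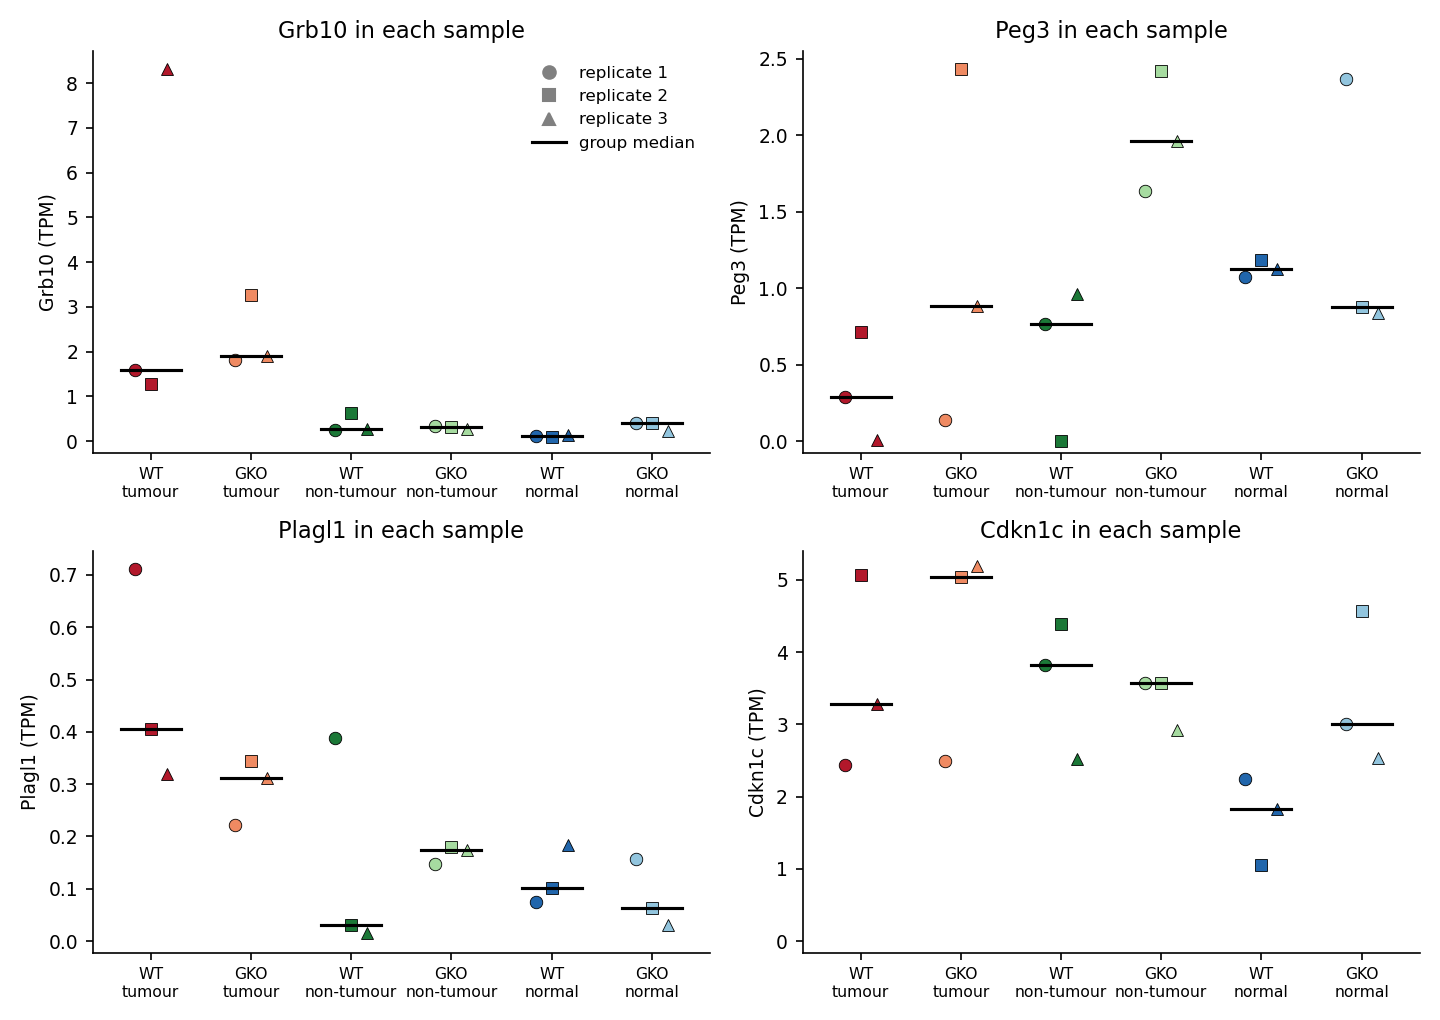
Grb10, Peg3, Plagl1 and Cdkn1c in TPM for each of the 18 samples, by group, with the replicate number as the symbol and the group median as a line. Grb10 is at 1.29 TPM or more in all 6 tumours and at 0.620 or less in all livers, Peg3 is at 0 in WT non-tumour 2, and Cdkn1c overlaps between tumours and non-tumours.

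Plagl1, which encodes a zinc finger factor that slows the cell cycle and acts on other imprinted genes, was low throughout. The WT tumours were at 0.712, 0.405 and 0.319 TPM and the GKO tumours at 0.221, 0.344 and 0.312, with 16 to 46 reads each. The 6 non-tumours lay between 0.0153 and 0.389 TPM and the normal livers between 0.0301 and 0.184 TPM. All tumours were above all normal livers, as in 2.45% of the 7073 genes that averaged 0.05 to 0.5 TPM in these samples, while WT non-tumour 1, at 0.389 TPM, overlapped the tumours. The exact permutation test of 6 tumours against 6 non-tumours gave p = 0.02 (two-sided), with means of 0.385 and 0.156 TPM, and 3.27% of 6951 genes of this range were higher in tumours with as small a p. Fitted without the filter on low values, the difference was 0.37 in WT (adjusted p = 0.414 from limma) and 0.15 in GKO mice (0.311).

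Cdkn1c, which encodes an inhibitor of cyclin-dependent kinases, was the only member above 1 TPM in every sample. The WT tumours were at 2.43, 5.08 and 3.28 TPM and the GKO tumours at 2.49, 5.04 and 5.20. Non-tumours had 2.52 to 4.38 TPM, within the range of the tumours. Tumours differed from non-tumours by -0.01 in WT and 0.23 in GKO mice (standard errors 0.28 and 0.27, adjusted p = 0.989 and 0.582 from limma). In normal livers the WT values of 2.24, 1.05 and 1.83 TPM were below the GKO values of 3.00, 4.56 and 2.54 TPM. In 6.23% of 13099 genes the GKO normal livers were likewise all higher. The difference of 0.69 (standard error 0.26) had an unadjusted p of 0.029 and an adjusted p of 0.999 from limma. The antisense gene Gm44732 covers 625 (30.7%) of its 2039 exonic bases and had 0 reads in every sample.

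Peg3 (chromosome 7, 6703892 to 6730431, minus strand) encodes a zinc finger factor that is read from the paternal copy. The WT tumours were at 0.291, 0.713 and 0.00850 TPM (32, 78 and 1 reads) and the GKO tumours at 0.138, 2.43 and 0.887. The WT non-tumours were at 0.767, 0 and 0.960 TPM and the GKO non-tumours at 1.64, 2.42 and 1.96. The WT normal livers lay close together at 1.07, 1.18 and 1.13 TPM, and the GKO normal livers were at 2.37, 0.875 and 0.838. WT non-tumour 2, with 0 reads of Peg3 among 17907881, stood apart from the other 11 livers without tumour, which had 84 to 258 reads.

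WT non-tumour 2 also stood apart as a whole, with a Pearson's r of 0.892 to 0.933 with the other livers without tumour. Among those livers r was 0.946 to 0.983. Its macrophage markers summed to 179 TPM, against 220 to 911 TPM in the other non-tumours. Genes of connective tissue cells were uneven in WT non-tumour 2. Dcn, a matrix proteoglycan of connective tissue cells that is itself imprinted in mouse placenta, was at 6.23 TPM there and between 28.7 and 59.4 TPM in the other 11 livers. In the tumours Dcn lay between 3.75 and 8.74 TPM except for GKO tumour 2, at 23.3 TPM, which was also the tumour with the most Peg3. Lrat, an enzyme of retinol storage in stellate cells, was at 0.298 TPM in WT non-tumour 2 and at 1.58 TPM in GKO tumour 2, against 0.271 to 0.797 TPM in the other tumours. Other markers went the other way, since Col1a1 (8.45 TPM), Col1a2 (3.14), Col3a1 (8.63) and Acta2 (11.3) were higher in WT non-tumour 2 than in any other non-tumour. The whole list of 12 stellate cell and fibroblast markers summed to 64.6 TPM in WT non-tumour 2, against 66.0 to 116 TPM in the other non-tumours and 33.9 to 99.1 TPM in the normal livers. It summed to 227 TPM in GKO tumour 2 and to between 65.5 and 183 TPM in the other tumours. By the mean over all 18 samples Colec11 was its most abundant gene, while Col1a1 led in GKO tumour 2 and Acta2 in the WT tumours. The part of these cells in the Peg3 values was not tested.

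GKO tumours differed from GKO non-tumours in Peg3 by -0.62 (standard error 0.39), and GKO from WT tumours by 0.58 (standard error 0.43). Neither was called, with adjusted p-values of 0.297 and 0.721 from limma. Between non-tumours the genotypes did not overlap in Peg3, and 3.88% of 13768 genes were likewise higher in all 3 GKO samples. There the difference of 0.98 (standard error 0.29) had an unadjusted p of 0.012 and an adjusted p of 0.643 from limma. Without WT non-tumour 2 the difference was 0.69 (adjusted p = 0.944 from limma).

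**Figure D3:**
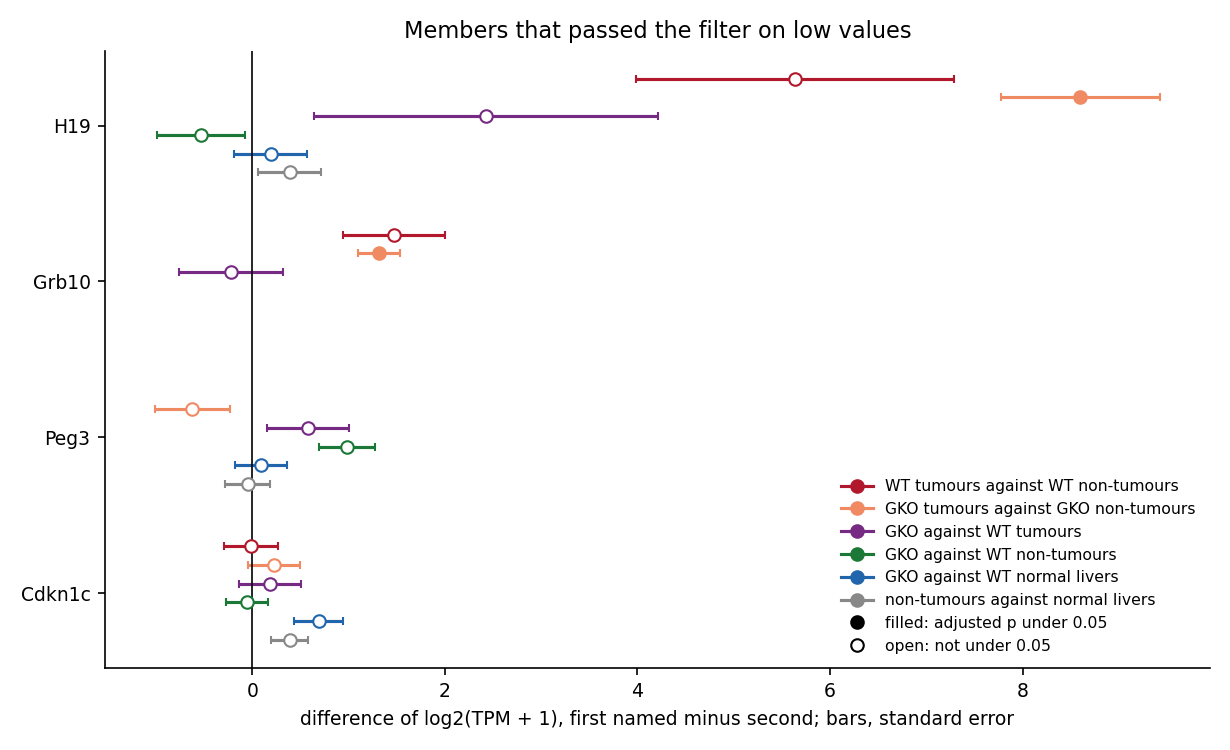
Differences of log2(TPM + 1) of the 4 members that passed the filter on low values, with standard errors, in 6 comparisons, where Grb10 passed it in the 3 with tumours and Peg3 in 5. Filled points are under an adjusted p of 0.05 in limma, which holds for H19 and Grb10 in GKO tumours against GKO non-tumours and for no other point.

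The genes of the Dlk1 and Meg3 domain lie on the plus strand of chromosome 12, Dlk1 at 109452823 to 109463336, Meg3 at 109541001 to 109571726, Rian at 109603940 to 109661716 and Mirg at 109729764 to 109749460. All 4 were under 1 TPM in every sample. For Meg3 the WT tumours were at 0.140, 0.606 and 0.00626 TPM (21, 90 and 1 reads) and the GKO tumours at 0.0120, 0.662 and 0.0471 (2, 98 and 7 reads). The WT non-tumours were at 0.249, 0.481 and 0.291 TPM and the GKO non-tumours at 0.480, 0.430 and 0.507, with 37 to 74 reads each. The 6 normal livers lay between 0 and 0.110 TPM, from 0 to 17 reads. Non-tumours were thus all above the normal livers, while the tumours spread over both ranges, with WT tumour 2 and GKO tumour 2 above all other samples.

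Rian followed the same samples. It had 102 reads in WT tumour 2 and 61 in GKO tumour 2, against 2 to 6 in the other tumours. Non-tumours had 7 to 43 reads, between 0.0467 and 0.289 TPM, and normal livers had 0, 1 or 2 reads. Mirg had at most 14 reads, in WT tumour 2, and at most 11 reads in the non-tumours, in which 2 samples had 0. In the normal livers it had 0 to 4 reads. Of Dlk1, the paternal gene, the WT tumours had 4, 16 and 0 reads and the GKO tumours 0, 11 and 12. In the 12 livers without tumour it had 0 to 3 reads. Dlk1 was therefore above the floor in 4 tumours only, and among them GKO tumour 3 had 12 reads of Dlk1 and 7 of Meg3.

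**Figure D4:**
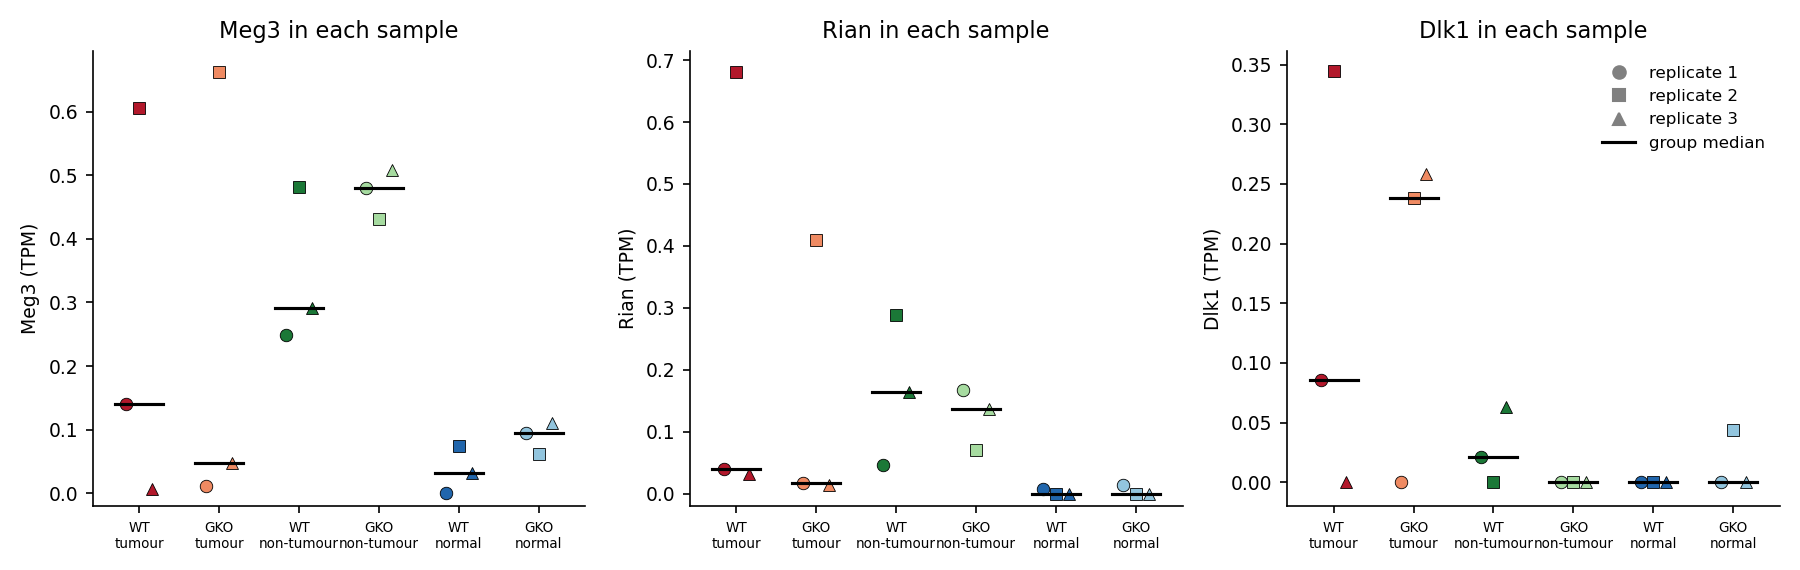
Meg3, Rian and Dlk1 in TPM for each of the 18 samples, by group, with the replicate number as the symbol and the group median as a line. Meg3 and Rian are higher in all 6 non-tumours than in all 6 normal livers, and in tumours they are highest in replicate 2 of both genotypes.

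None of these 4 genes passed the filter on low values in any comparison, so they were examined in 2 further ways. Between non-tumours and normal livers, the exact permutation test within genotype gave p = 0.005 (two-sided), the smallest possible, for Meg3 (means of 0.406 and 0.0622 TPM, n = 6 each) and for Rian (0.146 and 0.00358 TPM). Of 7291 genes that averaged 0.05 to 0.5 TPM in these livers, 58 (0.796%) were higher in all 6 non-tumours than in all 6 normal livers. Meg3 lay in this range in both tissues, but Rian reached it only through the non-tumours, so that the share says nothing of Rian. In a fit of the recovered reads of 17323 genes with at least 20 reads (voom in limma), Meg3 rose by 2.82 on the log2 scale (standard error 0.47, adjusted p = 0.0486), against a background of 0.0808% (14 genes). Rian, with 129 reads in the 6 non-tumours and 3 in the 6 normal livers, passed that minimum only through the non-tumours, and its fitted difference of 4.58 (adjusted p = 0.0485) depends on how the zeros are handled. The ratio of its reads per sequencing depth was 41.6, with a 95% interval of 13.9 to 204 (exact binomial, counting error only). When each of the 12 livers was left out in turn, the difference of Meg3 kept its direction and ran from 2.43 to 3.02, but the adjusted p ran from 0.0237 to 0.147 and stayed under 0.05 only without WT non-tumour 2 or GKO non-tumour 2. On log2(TPM + 1) without a filter, Meg3 differed by 0.40 (adjusted p = 0.0415 from limma) and Rian by 0.19 (adjusted p = 0.165), with 0.0279% of genes called. Between tumours and non-tumours the exact test gave p = 0.21 for Meg3 and 0.78 for Rian.

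Markers of cell types were compared between non-tumours and normal livers as well. All 12 endothelial markers had positive differences, with a median of 0.42, and all 10 macrophage markers, with a median of 1.04, against a median of 0.21 over all genes tested. The 12 stellate cell and fibroblast markers had 9 positive differences and a median of 0.15, and 8 of the 10 hepatocyte markers were positive, with a median of 0.19. All 4 cholangiocyte markers tested were negative, with a median of -0.43. None of these markers was called. The endothelial markers summed to between 72.6 and 140 TPM in non-tumours and between 61.5 and 130 TPM in normal livers, with Eng the most abundant by its mean over all samples, and every one of the 12 had reads in every sample. The macrophage markers summed to between 179 and 911 TPM in non-tumours and between 113 and 377 TPM in normal livers, with C1qa the most abundant. Their part in the Meg3 and Rian values was not tested. Between normal livers and non-tumours none of the 3 members tested in limma (H19, Peg3 and Cdkn1c) was called, against a background of 0.4% of genes, and none was under an unadjusted p of 0.05, as 2804 of the 13488 genes were.

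IGF2 acts through the IGF1 and insulin receptors, is cleared by IGF2R and is carried by binding proteins. Of 17 genes of this signalling, 13 were tested in each tumour comparison, and none was called between GKO and WT tumours (median 0.41, against 0.09 over all genes). Against non-tumours, 1 was called higher and 1 lower in WT mice, and likewise in GKO mice (background 4.23% and 11.7% in either direction), with medians of 0.08 and 0.29 against -0.02 and 0.20 over all genes. Igf1, the growth factor of adult liver, was at 3.22, 3.15 and 21.2 TPM in the WT and 29.4, 32.9 and 86.0 in the GKO tumours, and at 63.2 TPM or more in all non-tumours. Igf1 fell by 3.67 in WT and by 1.92 in GKO tumours (adjusted p = 0.0330 and 0.0290 from limma). The 3 lowest tumours were those of WT mice, but the difference between the genotypes, 2.62, was not called (adjusted p = 0.416 from limma). Igfbp1, a binding protein made by hepatocytes, was between 122 and 3782 TPM in the tumours and at 67.5 TPM or less in the non-tumours. Igfbp1 rose in WT tumours by 6.65 (adjusted p = 0.00149 from limma), and in GKO tumours the difference of 4.16 was not called (0.0732). Igfbp3, the main carrier in blood, rose in GKO tumours by 1.83 (adjusted p = 0.0287 from limma). In WT mice its difference was -0.31 (adjusted p = 0.694), and the difference between the genotypes, 2.14, was not called (adjusted p = 0.417 from limma). Igfbp2, the most abundant gene of the list by its mean over all samples, reached 4141 TPM and was not called. Its median in the tumours was 243 TPM, below the 2459 TPM of Igfbp1. Igf1r, the receptor through which IGF2 signals, lay between 0.128 and 0.517 TPM in the tumours and between 0.146 and 0.685 TPM in the livers.

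H19, Afp and Gpc3 are all made by fetal liver and silenced after birth. Afp, the fetal counterpart of albumin, was at 2353, 3334 and 66.1 TPM in the WT and 18.6, 55.6 and 13.02 in the GKO tumours. The order of the tumours was therefore not that of H19, which was highest in GKO tumours 1 and 3, where Afp was lowest. Gpc3, a heparan sulphate proteoglycan, was at 2.49 TPM in GKO tumour 1 and at 104 TPM or more in the other tumours, and it was high in WT tumour 3, where H19 was low. Of the 9 fetal liver genes listed, 5 were tested in each genotype, and 2 were called in each, against 4.23% of all genes in WT and 11.7% in GKO mice. In WT tumours Afp rose by 8.33 and Gpc3 by 6.93 (adjusted p = 0.0264 and 0.000864 from limma), with a median of 1.43 over the 5, against -0.02 over all genes. In GKO tumours Afp rose by 3.42 (adjusted p = 0.0165 from limma) and Zbtb20, a repressor of Afp, fell by 1.76 (adjusted p = 0.00887), with a median of 0.89, against 0.20. Both medians were the value of Cdh17, which was at 0.109 TPM or less in the non-tumours. It had passed the filter on low values only through the tumours, so these medians support nothing. Gpc3 differed by 4.59 in GKO tumours (adjusted p = 0.0719 from limma) and Zbtb20 by -1.01 in WT tumours (adjusted p = 0.0769), and neither was called there. Zbtb20 was at 3.68 to 5.41 TPM in all tumours and at 7.66 TPM or more in all livers. Zhx2, a repressor of both Afp and H19 in adult liver, was at 3.49 to 8.68 TPM in the tumours and 2.69 to 6.01 TPM in the non-tumours.

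**Figure D5:**
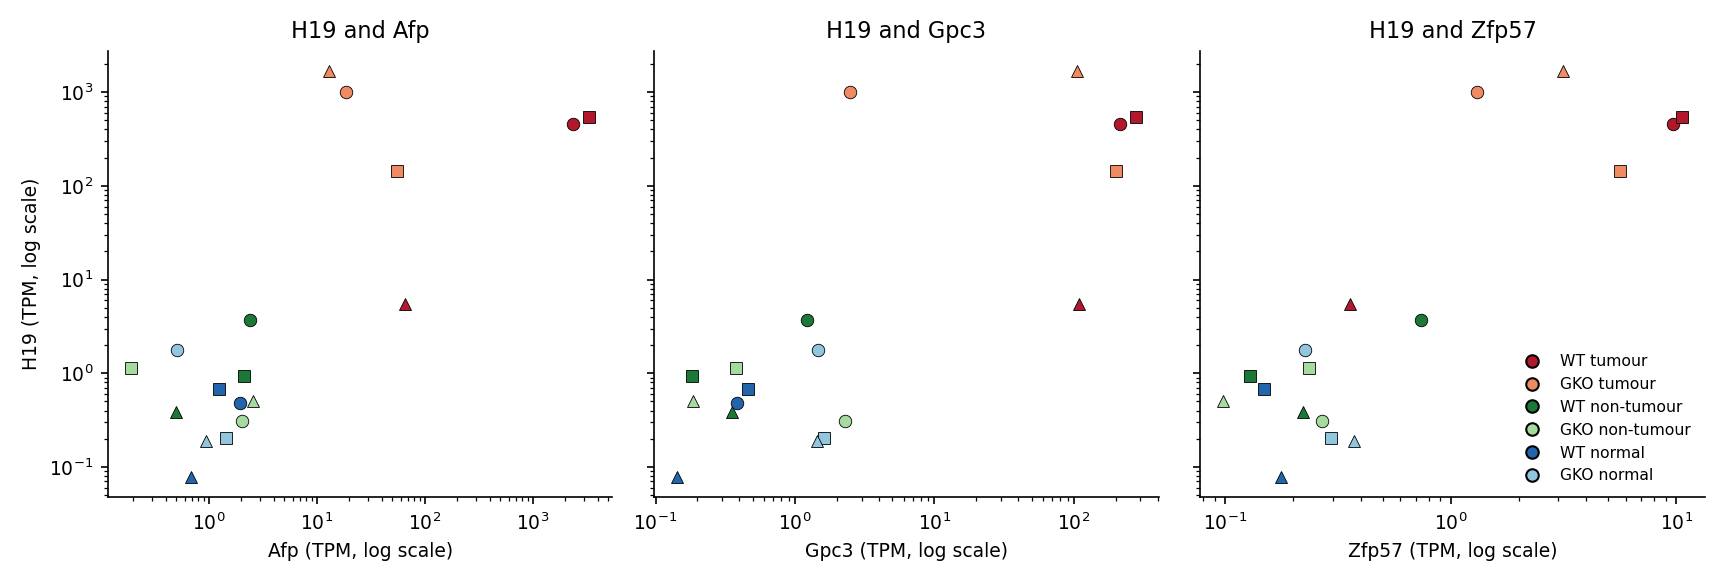
H19 against Afp, Gpc3 and Zfp57, in TPM on log axes, with 1 point per sample and the groups in colour. WT normal 1, listed at 0 TPM for Zfp57, is not drawn in that panel, and GKO tumours 1 and 3 are high in H19 and lower than the other tumours in Afp.

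Of 19 genes of enzymes and factors that keep imprints through cell division, 15 were tested between tumours and non-tumours of each genotype, and 1 was called, Zfp57 in GKO mice, against 4.23% of all genes in WT and 11.7% in GKO mice. The medians were 0.04 in WT and 0.07 in GKO mice, against -0.02 and 0.20 over all genes. Zfp57, a zinc finger protein that binds the methylated copy of imprinting control regions in the embryo, was at 9.65, 10.6 and 0.359 TPM in the WT and 1.32, 5.65 and 3.15 in the GKO tumours, and at 0.739 TPM or less in every liver. Its difference in GKO tumours was 1.74 (standard error 0.37, adjusted p = 0.0282 from limma), but it had passed the filter on low values only through the tumours, and in the fit without a filter it was not called (adjusted p = 0.0786). Its difference of 2.04 in WT tumours was not called (adjusted p = 0.225). WT tumour 3 was low in both H19 and Zfp57, and was inside the range of the livers for Zfp57. Trim28, its partner and the most abundant gene of the list, was at 26.2 to 52.2 TPM in the tumours and 21.7 to 32.5 TPM in the non-tumours.

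Markers of cell types were tested in the same comparisons, and none was called between GKO and WT tumours. In GKO tumours against non-tumours, 3 of 10 hepatocyte markers (Alb, Apoa1 and Fgb), 5 of 12 markers of stellate cells and fibroblasts (Acta2, Col1a1, Col1a2, Col3a1 and Pdgfrb) and 4 of 12 endothelial markers (Cdh5, Emcn, Pecam1 and Tie1) were called higher, against 7.75% of all genes. There, 2 of 10 macrophage markers (Marco and Timd4) were called lower, and 0 of 4 cholangiocyte markers were called. The medians were 0.44 for hepatocytes, -0.05 for stellate cells, 0.42 for endothelium, -1.13 for macrophages and 0.91 for cholangiocytes, against 0.20 over all genes. In WT mice, where 4.23% of genes were called in either direction, Alb was called higher, and Cyp2e1 and the pericyte gene Rgs5 lower. The most abundant cholangiocyte marker by its mean over all samples was Spp1, at 934 TPM in GKO tumour 2. The part of these cells in the H19 and Grb10 results was not tested.

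Of 56 other imprinted genes listed, 23 stayed under 1 TPM in all 18 samples. Among 28 tested in WT and 29 in GKO mice, 0 and 1 were called between tumours and non-tumours, against 4.23% and 11.7% of all genes, with medians of -0.20 and 0.12 against -0.02 and 0.20 over all genes. The one called was Dcn, which fell by 1.96 in GKO tumours (adjusted p = 0.0342 from limma). In WT tumours its difference was -1.67 (adjusted p = 0.206). Slc38a4, an amino acid transporter, was the most abundant of them by its mean over all samples. It was at 170 to 507 TPM in the tumours and 242 to 392 TPM in the non-tumours. Phlda2, a growth-restraining gene 42.1 kb from Cdkn1c, was at 25.7 TPM in GKO tumour 1 and between 0.982 and 9.23 TPM in the other tumours, against 0.109 to 3.28 TPM in non-tumours, and was not called in either genotype.

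Of 20 genes that start within 200 kb of the start of H19, 4 were tested in a tumour comparison and none was called. Ctsd, a lysosomal protease gene 190 kb away, had mean TPM of 299 in tumours and 173 in non-tumours, and Mrpl23, a mitochondrial ribosomal protein gene 45.5 kb away, had 20.7 and 16.5. Within this distance 3 genes were tested around Igf2, of which H19 itself was the one called. Of the genes around Plagl1 (4), Cdkn1c (6), Mirg (1) and Grb10 (1) that were tested, none was called, and around Dlk1, Meg3, Rian and Peg3 no gene was tested.

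The genes whose log2(TPM + 1) was most like that of H19 over the 18 samples, among 13914 genes, were Anks6, Spink1 and Scd2, with Pearson's r of 0.975, 0.972 and 0.961. For Meg3 they were Ufd1, Ptafr and Ctss, with r of 0.751, 0.742 and 0.715, and for Dlk1 Abhd8, Arhgef25 and Cldnd2, with r of 0.890, 0.846 and 0.845. For Igf2 they were Rgs3, Pnpla3 and H2-Q2, with r of 0.876, 0.869 and 0.856, but Igf2 was above the floor of 3 reads in GKO tumour 3 only. Dlk1 had few reads as well. The 18 samples share 6 groups, so these values describe the pattern over tissues and say little about samples within a group. Spink1 was at 148, 236 and 0.537 TPM in the WT and 52.8, 59.7 and 333 in the GKO tumours, low in WT tumour 3 as H19 was.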

How the data were processed

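Gene expression in 18 samples was analysed, in 6 groups of 3 that follow the genotype and tissue of the labels. Per the submitters' processing notes, STAR 2.7.3a and featureCounts 2.0.0 were used, with mm10. The authors deposited TPM, reads per gene length scaled to 1 total per sample, for 54838 genes (101 symbols repeated, 0 columns of no sample). Their setting for reads that match several genes is not given in the sources used here. Exonic lengths came from GENCODE mouse release 21, in which 54809 genes were found, and TPM times length returned whole reads, within 0.02, for at least 97.95% of values up to 30 reads. Reads carry no molecular identifiers, so the floor of 3 reads covers counting error only.

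The 7 comparisons were fitted with limma 3.58.1 (R 4.3.3, lmFit, eBayes with trend) on log2(TPM + 1). Genes had to average 0.5 TPM in the fitted samples, p-values were adjusted by Benjamini-Hochberg over all of them, and calls were made under 0.05. Differences are on this scale, which understates changes of low genes. Non-tumours were compared with normal livers with genotype as a covariate. Exact permutation tests, 20 in all, and figures used Python 3.11.15, numpy 2.4.6, pandas 2.3.3 and matplotlib 3.10.9. Unadjusted over these 20 tests, their p-values are descriptive. The procedure was tested on simulated data. The study describes 3 mice per group for tumours and non-tumours, but no label ties a sample to a mouse, so p-values measure the spread between these samples, which may be technical.

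The members and gene lists were chosen with earlier results of these data known. By rule, the genes named are the members, list genes under the threshold in a tumour comparison, the most abundant of each list, neighbours under the threshold, and the 3 genes most like H19, Igf2, Dlk1 or Meg3. Lrat, Igf1r, Zhx2, Cdh17, Phlda2, Ctsd, Mrpl23, Gm49394 and Gm44732 were chosen after their values were seen. The lymphocyte marker list is not reported here. Alternatives to these choices were no filter, a filter of 5 TPM, a pseudocount of 0.1, quantile normalization, median centring, eBayes without trend, one fit of all 18 samples, a replicate block, voom on recovered reads, and leaving out each sample. Voom with a minimum of 20 reads, the exact tests, the leave-out fits of Meg3 and Rian, averaging WT tumours 1 and 2, the ratio of Rian reads and the fit of Zfp57 without a filter were chosen after seeing the data.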

Additional observations from a re-analysis of the deposited data

How the results depend on the processing

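H19 in GKO tumours against GKO non-tumours kept its direction and its call under every alternative run, and of all member values 389 kept their direction and their side of the threshold, 22 changed sign, 3 passed it only under an alternative and 1 lost it (Grb10 in GKO tumours, adjusted p = 0.0709 from limma without GKO non-tumour 3). Counts of called genes depended more on the settings. For GKO against WT tumours (3 genes) the count was 0 with a pseudocount of 0.1, no filter, median centring, either voom fit or WT tumours 1 and 2 averaged, 78 with all 18 samples in one fit, and 0 to 147 on leaving out 1 sample, with 147 without WT tumour 3. In WT tumours against non-tumours (592) it was 297 without a filter, 1533 with all 18 samples, 185 with the average and 163 to 1363 on leaving out 1 sample, with 1363 without WT tumour 3. In GKO mice (1652) it was 589 without a filter, 1047 with a filter of 5 TPM, 2627 with all 18 samples and 229 to 1567 on leaving out 1 sample, with 229 without GKO non-tumour 3. Between non-tumours and normal livers (54) it was 8 without a filter, 11 with 5 TPM, 2 with median centring, 3 with quantile normalization, 10 and 14 with voom, and 1 to 738 on leaving out 1 sample, with 738 without GKO non-tumour 2. For the difference of the tumour effect (2) it was 0 with a pseudocount of 0.1 or either voom fit, 4 without a filter, 1 with 5 TPM, 12 with all 18 samples and 2 to 91 on leaving out 1 sample, with 91 without WT tumour 3. Members called in WT tumours were 2 with all 18 samples and 0 to 1 on leaving out 1 sample, and in GKO tumours 1 with 5 TPM and 1 to 2 on leaving out 1 sample. Between non-tumours and normal livers 1 member was called without a filter and 2 by voom with 20 reads, of which Rian passed that minimum only through the non-tumours. Differences near 0 changed sign. Cdkn1c went to -0.0101 in GKO tumours and to 0.113 between non-tumours with median centring, to 0.0821 there with quantile normalization, 0.0829 with voom and 0.0828 with voom from 20 reads, and to 0.00196 in WT tumours with the average. Peg3 in normal livers went to -0.00167 with median centring and -0.0153 with quantile normalization. On leaving out 1 sample, Cdkn1c ran from -0.00634 to 0.453 and Grb10 from -0.587 to 0.426 between tumours of the genotypes, Cdkn1c from -0.233 to 0.179 in WT tumours against non-tumours and from -0.231 to 0.0759 between non-tumours of the genotypes, Peg3 from -0.197 to 0.241 between normal livers of the genotypes and from -0.161 to 0.138 between non-tumours and normal livers, and Grb10 from -0.519 to 0.494 in the difference of the tumour effect. The cause was not tested.

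Same-numbered samples correlated at -0.29 to 0.245 in their deviations from the group means, not all over 0.1. Between tumours and non-tumours of the same genotype the values ran from -0.009 to 0.245. This check cannot tell whether a tumour and a non-tumour came from 1 mouse, since such samples need not deviate together. The main fits did not pair samples by replicate number. With the replicate number as a block, the counts were 0 for GKO against WT tumours, 361 in WT tumours and 14 between non-tumours and normal livers.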
